A study of Mus musculus with 3 samples.

Results

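The 10 genes described here are markers of surface pit cells: Tff1, Gkn1, Gkn2, Psca, Muc5ac, Ctse, Vsig1, Vsig2, Capn8 and Capn9. They were taken by gene symbol from a deposited table of 56691 genes, and each symbol matched 1 line. RNA was sequenced from 3 cultures of mouse gastric organoids, with 1 library in each of 3 groups. Organoids are hollow or budding epithelial structures grown from tissue cells in a gel matrix. These came from the corpus, the acid- and pepsinogen-making part of the stomach, of mice about 8 weeks old, and were kept in proliferating medium. All 3 sample titles also hold the label P5. For the culture with the label Gpx4 KO-Mist1+ the mice had the genotype Gpx4F/F;Mist1Cre/ERT2;RFPLSL, in which Cre, in its tamoxifen-inducible ERT2 form, can delete a floxed Gpx4. The Mist1+ and Mist1- cultures came from Mist1Cre/ERT2;RFPLSL mice and have a WT label, so the Cre allele at the Mist1 locus and the red fluorescent reporter were common to all 3. Mist1 is a transcription factor of secretory cells, and in the corpus its locus is active chiefly in chief cells, so the Cre marks a part of the epithelium only. Gpx4 itself, a peroxidase that protects membrane lipids, had 2569 counts in the library labelled Gpx4 KO-Mist1+, 1998 in Mist1+ and 4399 in Mist1-. It was thus not lower in the labelled knockout than in Mist1+, though a count over the whole gene does not test the deleted part, and the name is used here as a label only. Bhlha15, the gene of Mist1, had 370, 580 and 282 counts in the same order.

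Surface pit cells, also called foveolar or surface mucous cells, line the stomach wall and the openings of its glands. They secrete a mucus gel that shields the wall from acid. The gel is built on the mucin MUC5AC, with which the trefoil peptide TFF1 is packed, and the gastrokines GKN1 and GKN2 are secreted along with it. In humans GKN2 and TFF1 are known to form a disulfide-linked pair. Pit cells arise from progenitors in the isthmus of the gland and turn over within days. Chief cells, by contrast, lie at the gland base.

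The libraries held 16396693 counts in Gpx4 KO-Mist1+, 16187378 in Mist1+ and 14943918 in Mist1-. Levels are given as FPKM, the reads per kilobase of exon scaled to the library's total, with 95% Poisson intervals that cover counting error only. Since each group is a single library, differences could be set only against counting error, and no test between groups was made. A fold is a count over its library's total, divided by the same for the other library, and has an exact 95% interval. A gene was counted as measured when its FPKM reached 1 in at least 1 library, which 13351 genes did, and as called when the log2 ratio of FPKM plus 1 was at least 1 in size. RNA was taken from whole cultures, so fewer cells of a type and less RNA per cell cannot be told apart. Markers of fibroblasts (0 of 7), endothelium (0 of 4) and enteroendocrine cells (0 of 9) were not measured in any library, and Ptprc, of all white blood cells, had at most 1 count.

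Of the 10 genes, 7 were measured. Muc5ac, Capn8 and Capn9 stayed below an FPKM of 1 in every library and had 35, 37 and 40 counts together in Gpx4 KO-Mist1+, Mist1+ and Mist1-. The set therefore split into well expressed members, led by Tff1, Vsig1, Vsig2 and Ctse, and members close to 0 that include the defining mucin. The name surface pit cell genes is thus met by part of the set only, and the genes are treated here as a list. The gastrokines Gkn1 and Gkn2 lay between, above 20 FPKM in Mist1- and at or below 5.02 in both Mist1+ cultures. Promoter sequences were found in RefSeq for 5 of the 10 genes, namely Gkn1, Gkn2, Vsig1, Capn8 and Capn9. Those of Gkn1 and Gkn2, which were low in the same libraries, are printed with that of Vsig1, which was not, as the 250 bases before the RefSeq start site in GRCm38.p6. RefSeq and GENCODE M21, from which the gene coordinates given with the values come, differ in their starts, so the window of Gkn1 runs 27 bases and that of Gkn2 8 bases into the M21 gene. Capitals mark GATAAG or its reverse complement CTTATC, a form of the motif of GATA factors, whose core is GATA. Other forms of the motif were not searched and are not marked. The windows are chr6:87350916-87351165 on the minus strand for Gkn1, chr6:87373115-87373364 on the plus strand for Gkn2 and chrX:140907358-140907607 on the plus strand for Vsig1.
Gkn1: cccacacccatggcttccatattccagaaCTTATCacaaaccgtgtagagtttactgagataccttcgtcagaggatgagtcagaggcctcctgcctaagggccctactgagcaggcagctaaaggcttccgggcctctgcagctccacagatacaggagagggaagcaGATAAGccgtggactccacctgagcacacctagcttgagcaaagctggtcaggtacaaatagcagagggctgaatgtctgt
Gkn2: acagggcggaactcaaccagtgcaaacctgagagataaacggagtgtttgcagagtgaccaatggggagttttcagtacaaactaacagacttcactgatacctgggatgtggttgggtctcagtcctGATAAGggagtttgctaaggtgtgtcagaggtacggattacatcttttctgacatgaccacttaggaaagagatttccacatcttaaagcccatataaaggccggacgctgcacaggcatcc
Vsig1: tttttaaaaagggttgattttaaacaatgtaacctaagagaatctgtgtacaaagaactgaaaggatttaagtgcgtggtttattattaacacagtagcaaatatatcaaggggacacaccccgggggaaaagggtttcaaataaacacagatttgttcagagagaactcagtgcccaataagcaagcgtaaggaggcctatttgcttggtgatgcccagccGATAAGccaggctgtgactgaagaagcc

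The motif stood at 221 to 216 and at 81 to 76 bases before the RefSeq start in Gkn1, at 122 to 117 in Gkn2 and at 28 to 23 in Vsig1. It was searched on both strands. Of the 32851 promoter windows of the same length in the RefSeq table, 6.55% hold it. GATAAG was not found in the windows of Capn8 and Capn9, the pair of members near 0 that have a window. Both windows do hold GATA or its reverse complement TATC in other forms, as TGATAG in Capn8 and CTATCT in Capn9. TATAAA, on either strand, was in the window of Gkn2 alone among the 5 and in 12.4% of all windows. TGTTTA, a forkhead core, was in those of Capn8 and Vsig1 and in 12.0% of all. ACGTG, a form of the hypoxia core, was in none of the 5 and in 16.6% of all windows. Its other form, GCGTG, was not searched over all windows and stands in that of Vsig1. The E-boxes CAGCTG (13.0%), CACGTG (6.02%, which overlaps ACGTG) and CATATG (3.46%) were in none of the 5. These matches describe the letters of the windows, and the motifs were picked after the values were known.

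**Figure D1:**
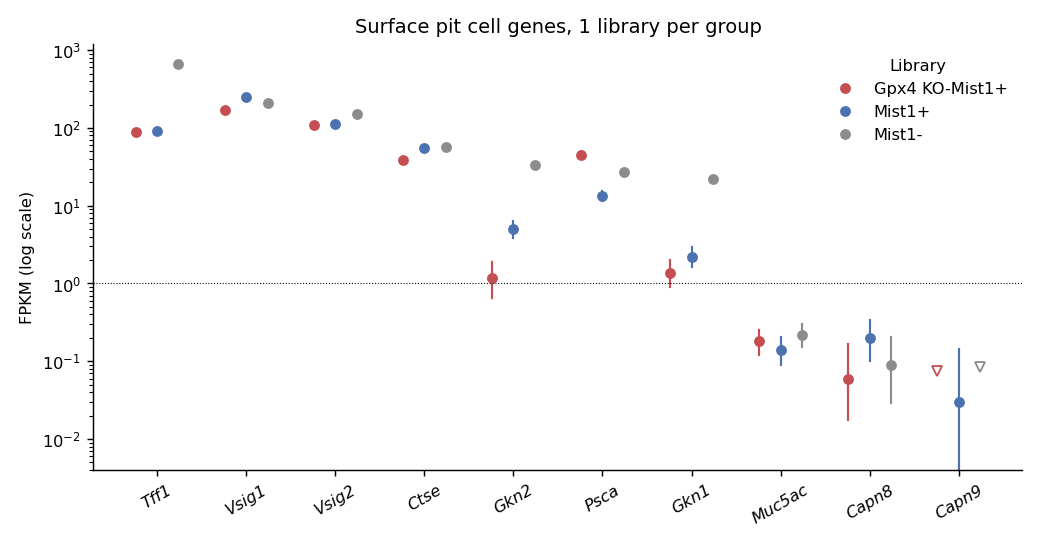
FPKM of the 10 genes on a log axis, in order of their level in Mist1-, with a point per library and lines for the 95% Poisson interval. Open triangles mark Capn9 at 0 counts, drawn at the FPKM of 3 counts, and the dotted line is an FPKM of 1. The lower end of the interval of Capn9 in Mist1+ runs off the axis. Tff1, Gkn1 and Gkn2 stand highest in Mist1-, Psca is lowest in Mist1+, and Muc5ac, Capn8 and Capn9 lie below the dotted line.

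Among the secreted mucus peptides, Tff1 led. Tff1 (ENSMUSG00000024032; chromosome 17, 31161395 to 31165277, minus strand in GRCm38; 703 exonic bases) had 1011 counts in Gpx4 KO-Mist1+, 1031 in Mist1+ and 6900 in Mist1-. In the same order these are 87.7 (82.4 to 93.3), 90.6 (85.2 to 96.3) and 657 (641 to 672) FPKM. Tff1 was therefore level in both Mist1+ cultures and far above them in Mist1-, where only 67 measured genes had a higher FPKM. An antisense gene, Gm15318, overlaps it by 1660 bases, and since the counting strand is not given in the sources used here, reads of the pair cannot be told apart; Gm15318 had 14, 10 and 45 counts.

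Gkn1 and Gkn2 encode secreted gastrokines with a BRICHOS domain. Gkn1 (ENSMUSG00000030050; chromosome 6, 87345650 to 87350942, minus strand; 1250 exonic bases) had 28, 45 and 414 counts in Gpx4 KO-Mist1+, Mist1+ and Mist1-, or 1.37 (0.908 to 1.97), 2.22 (1.62 to 2.98) and 22.2 (20.1 to 24.4) FPKM. Gkn2 (ENSMUSG00000030049; chromosome 6, 87373357 to 87379497, plus strand; 788 exonic bases) had 15, 64 and 394 counts, or 1.16 (0.650 to 1.91), 5.02 (3.86 to 6.41) and 33.5 (30.2 to 36.9) FPKM. Both were highest in Mist1-, and the intervals of Gkn2 were apart in all 3 libraries, whereas those of Gkn1 overlapped between Gpx4 KO-Mist1+ and Mist1+. The FPKM of Gkn2 over that of Gkn1 was 0.847 in Gpx4 KO-Mist1+, 2.26 in Mist1+ and 1.51 in Mist1-. In the first of these libraries the levels of the gene pair had overlapping intervals. Muc5ac (ENSMUSG00000037974; chromosome 7, 141788972 to 141819231, plus strand; 10752 exonic bases), the main gel-forming mucin of the pit, had 31, 24 and 35 counts over its long transcript. That is 0.18 (0.119 to 0.25), 0.14 (0.0884 to 0.205) and 0.22 (0.152 to 0.303) FPKM, with overlapping intervals in the 3 libraries. Foxq1, a forkhead factor that Muc5ac is known to need in mouse pit cells, stood at 29.3, 37.1 and 43.7 FPKM.

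Among the membrane proteins, Vsig1, a junctional immunoglobulin-domain protein that binds ZO-1 and marks glandular stomach epithelium, was the best expressed member in both Mist1+ cultures. Vsig1 (ENSMUSG00000031430; chromosome X, 140907608 to 140939472, plus strand; 2768 exonic bases) had 7783, 11056 and 8618 counts in Gpx4 KO-Mist1+, Mist1+ and Mist1-, or 171 (168 to 175), 247 (242 to 251) and 208 (204 to 213) FPKM. Vsig2 (ENSMUSG00000001943; chromosome 9, 37539255 to 37544205, plus strand; 1979 exonic bases), a related membrane protein, had 3514, 3571 and 4481 counts, or 108 (105 to 112), 111 (108 to 115) and 152 (147 to 156) FPKM. Vsig1 was thus highest in Mist1+ and Vsig2 in Mist1-. Psca (ENSMUSG00000022598; chromosome 15, 74714839 to 74717069, plus strand; 860 exonic bases) encodes a lipid-anchored surface protein of the Ly6 family. It had 634, 184 and 344 counts, or 45.0 (41.5 to 48.6), 13.2 (11.4 to 15.3) and 26.8 (24.0 to 29.8) FPKM. Psca was the only one of the 7 measured members that was highest in Gpx4 KO-Mist1+, with intervals apart in all 3 libraries.

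Among the proteases, Ctse (ENSMUSG00000004552; chromosome 1, 131638306 to 131675505, plus strand; 3170 exonic bases), the intracellular aspartic protease cathepsin E of surface mucous cells, had 2001 counts in Gpx4 KO-Mist1+, 2796 in Mist1+ and 2673 in Mist1-. That is 38.5 (36.8 to 40.2), 54.5 (52.5 to 56.5) and 56.4 (54.3 to 58.6) FPKM, lowest in Gpx4 KO-Mist1+ and with overlapping intervals in Mist1+ and Mist1-. Capn8 and Capn9 form the stomach calpain of pit cells and help protect the mucosa from injury. Capn8 (ENSMUSG00000038599; chromosome 1, 182565007 to 182632352, plus strand; 3770 exonic bases) had 4, 12 and 5 counts. Capn9 (ENSMUSG00000031981; chromosome 8, 124576111 to 124618731, plus strand; 2414 exonic bases) had 0, 1 and 0 counts, where 3 counts would be an FPKM of 0.0758, 0.0768 and 0.0832. Neither calpain was separated between libraries at this depth, since the Capn8 intervals of 0.0176 to 0.166, 0.102 to 0.343 and 0.0288 to 0.207 FPKM overlapped.

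**Figure D2:**
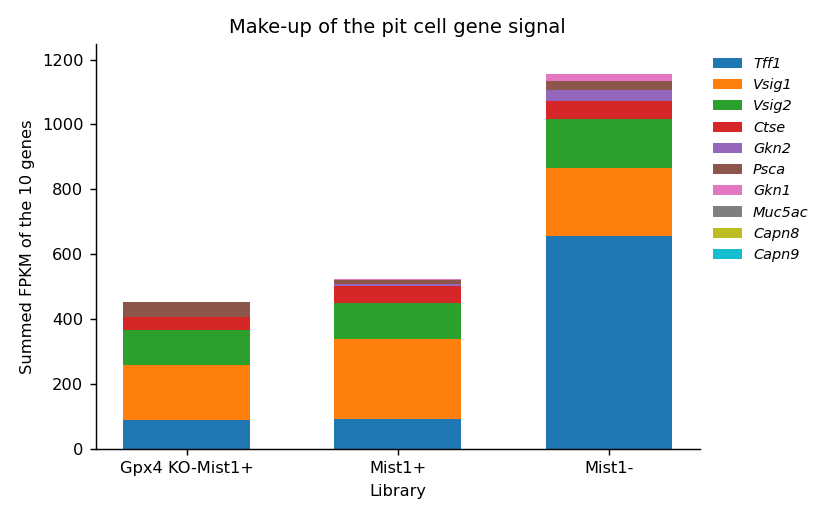
Summed FPKM of the 10 genes in each library, stacked by gene, on an axis that starts at 0. The sum was 454 in Gpx4 KO-Mist1+, 524 in Mist1+ and 1156 in Mist1-, and most of the gap to Mist1- is Tff1.

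The order of levels within a library changed through the places of the secreted peptides and of Psca. In Gpx4 KO-Mist1+ it ran Vsig1, Vsig2, Tff1, Psca, Ctse, Gkn1, Gkn2. Only the last pair had overlapping intervals. In Mist1+ it ran Vsig1, Vsig2, Tff1, Ctse, Psca, Gkn2, Gkn1, with no overlap between neighbours. In Mist1- it ran Tff1, Vsig1, Vsig2, Ctse, Gkn2, Psca, Gkn1, and the intervals of Psca and Gkn1 overlapped. Muc5ac, Capn8 and Capn9 were the lowest in each library. Among these 3 the intervals of neighbours in the order overlapped, while Muc5ac stood above Capn9, with intervals apart, in Gpx4 KO-Mist1+ and in Mist1-. The plot of summed FPKM shows the make-up of the whole set. Tff1 made up 19.3% of the sum in Gpx4 KO-Mist1+, 17.3% in Mist1+ and 56.8% in Mist1-. Without Tff1 the sums were 366, 434 and 499 FPKM, which are much closer together. Psca made up 9.91%, 2.52% and 2.32%.

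Mist1+ against Mist1- sets organoids carrying the Mist1 label beside organoids that lack it. The secreted peptides Tff1, Gkn1 and Gkn2 were lower in Mist1+, while the membrane proteins Vsig1 and Vsig2 and the protease Ctse were within 1.36-fold. Of the 7 measured members 3 were called lower and 0 higher, where 5.73% of all measured genes were called lower and 7.88% higher. Tff1 was 7.25-fold (6.79 to 7.75), Gkn1 9.97-fold (7.31 to 13.9) and Gkn2 6.67-fold (5.11 to 8.83) lower in Mist1+. Of the 13351 measured genes only 4, 5 and 12 had a lower log2 ratio than Gkn1 (-2.85), Tff1 (-2.84) and Gkn2 (-2.52). Psca was 2.03-fold lower (1.69 to 2.44), but its log2 ratio of -0.97 on FPKM plus 1 missed the call. Vsig2 was 1.36-fold lower (1.30 to 1.42) and Vsig1 1.18-fold higher (1.15 to 1.22), while Ctse, at 0.966-fold (0.915 to 1.02), was not separated by counting error. The median log2 ratio of the 7 was -0.97, beside 0.15 over all measured genes.

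**Figure D3:**
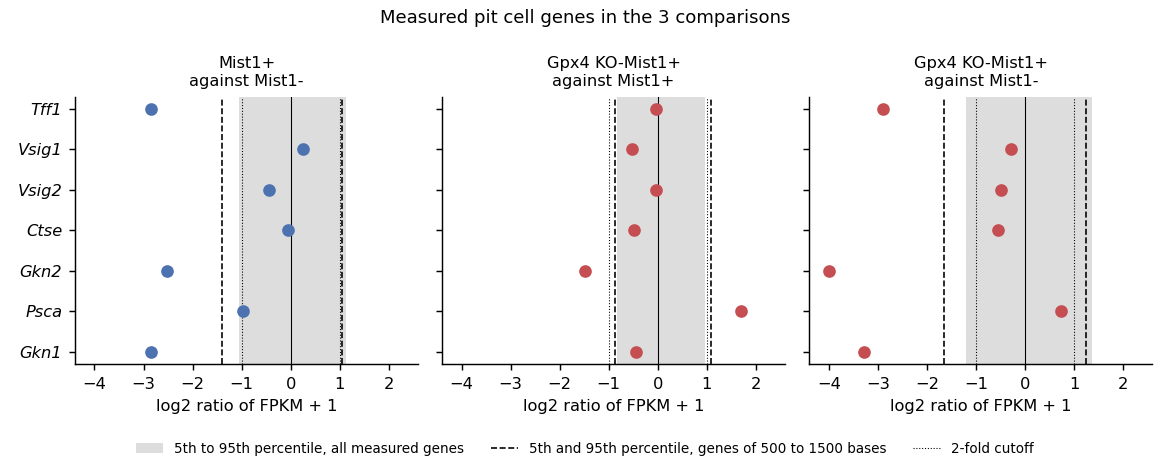
Log2 ratios of FPKM plus 1 of the 7 measured members, with 1 panel per comparison. Grey bands span the 5th to 95th percentile of all 13351 measured genes, dashed lines give the same for the 1523 genes of 500 to 1500 exonic bases, and dotted lines mark the 2-fold call. Tff1, Gkn1 and Gkn2 lie left of the grey band in both comparisons with Mist1-. Between Gpx4 KO-Mist1+ and Mist1+, Gkn2 lies left of it and Psca right of it.

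Short transcripts as a whole were lower in Mist1+ than in Mist1-, and the members that were lower are short. Among the 1523 measured genes of 500 to 1500 exonic bases, 19.2% were called lower and 5.52% higher in Mist1+, with a median log2 ratio of -0.48. Tff1, Gkn1, Gkn2 and Psca, at 703 to 1250 bases, fall in this range. Vsig2, Vsig1 and Ctse, at 1979 to 3170 bases, do not. With the trend on exonic length removed, Tff1 was at -2.28, Gkn1 at -2.25 and Gkn2 at -1.94, all still called lower, as were 2.45% of all measured genes, and Psca was at -0.38. Vsig1 was at 0.50, Ctse at 0.13 and Vsig2 at 0.03, so the sign of the last pair turned. The sign of Ctse turned, too, when FPKM were put on a common sum as TPM (0.27), and Vsig1 was level after median ratio scaling (0.02).

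**Figure D4:**
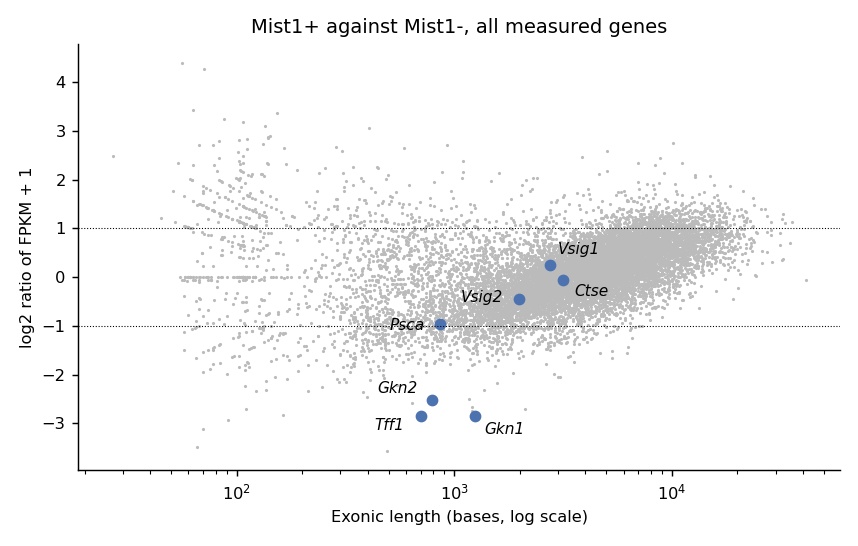
Log2 ratio of FPKM plus 1 for Mist1+ against Mist1- over exonic length on a log axis, with 1 grey point for each of the 13351 measured genes and the 7 measured members in blue. Dotted lines mark the 2-fold call. The cloud slopes upward with length. Psca, at -0.97, lies within it, above the 5th percentile of -1.40 for genes of 500 to 1500 bases. Tff1, Gkn1 and Gkn2 lie below nearly all of it.

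Gpx4 KO-Mist1+ against Mist1+ is the contrast for the Gpx4 deletion, and as the Gpx4 count was no lower in the labelled knockout, each direction here is that of a label. Psca was higher and Gkn2 lower in Gpx4 KO-Mist1+, and Tff1 and Vsig2 were level. Of the 7 measured members 1 was called higher and 1 lower, where 4.81% of all measured genes were called higher and 2.74% lower. Psca was 3.40-fold higher (2.88 to 4.03), a log2 ratio of 1.69 that 199 measured genes exceeded. Gkn2 was 4.32-fold lower (2.44 to 8.17), a log2 ratio of -1.48 that rests on 15 counts against 64. With a pseudocount of 5 Gkn2 was at -0.70 and was not called, and 0.524% of all genes were called lower. At a 4-fold cutoff 0 members were called higher and 0 lower, where 0.899% and 0.232% of all genes were. Tff1 was at 0.968-fold (0.887 to 1.06) and Vsig2 at 0.971-fold (0.927 to 1.02). Vsig1 was 1.44-fold (1.40 to 1.48) and Ctse 1.42-fold (1.34 to 1.5) lower, both below the call. Gkn1, at 0.614-fold (0.369 to 1.01), was not separated by counting error. The median of the 7 was -0.44, beside -0.09 over all measured genes. In this pair the genes of 500 to 1500 bases had a median of -0.05, with 6.04% called higher and 3.02% lower.

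The remaining contrast, Gpx4 KO-Mist1+ against Mist1-, shares a library with each of the comparisons above, so its values are not independent of theirs. The 3 secreted peptides were lower again and Psca was on the other side. Of the 7 measured members 3 were called lower and 0 higher, where 8.56% of all measured genes were called lower and 11.6% higher. Gkn2 was 28.8-fold (17.3 to 52.0), Gkn1 16.2-fold (11.1 to 24.7) and Tff1 7.49-fold (7.01 to 8.01) lower, with log2 ratios of -4.00, -3.29 and -2.89. Psca was 1.68-fold higher (1.47 to 1.92), a log2 ratio of 0.73 that missed the call. It was called on TPM (1.03), with the length trend removed (1.22) and at a 1.5-fold cutoff, where 24.3%, 9.5% and 25.6% of all genes were called higher. Ctse was 1.47-fold (1.38 to 1.55), Vsig2 1.40-fold (1.34 to 1.46) and Vsig1 1.21-fold (1.18 to 1.25) lower. The sign of Vsig1 turned to 0.01 on TPM and with the length trend removed. The median of the 7 was -0.54, beside 0.09 over all measured genes and -0.44 over the genes of 500 to 1500 bases, of which 22.7% were called lower and 7.94% higher.

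Several members have close relatives next to them on the chromosome, and these did not keep the same levels. Tff1, Tff2 and Tff3 lie within 40.0 kb on chromosome 17 with no other protein-coding gene between them. Tff2, the trefoil peptide of mucous neck cells, had 111, 52.5 and 178 FPKM in Gpx4 KO-Mist1+, Mist1+ and Mist1-, and Tff3, the intestinal one, had 0.25, 0.75 and 0.68. Tff2 was thus lowest in Mist1+, as Psca was, whereas Tff1 was level in both Mist1+ cultures. Tff2 was 2.11-fold higher (1.89 to 2.35) in Gpx4 KO-Mist1+ than in Mist1+ and 3.39-fold lower (3.06 to 3.76) in Mist1+ than in Mist1-. The FPKM of Tff1 over that of Tff2 was 0.793, 1.73 and 3.69.

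Gkn1, Gkn2 and Gkn3 lie within 43.3 kb on chromosome 6, and the start sites of Gkn1 and Gkn2 are 22.4 kb apart and point away from each other. Gkn3, a gastrokine of mucous neck cells, had 1320 FPKM in Gpx4 KO-Mist1+, 624 in Mist1+ and 861 in Mist1-. It was abundant in every library, unlike its neighbours. Gkn3 was 2.11-fold higher (2.06 to 2.17) in Gpx4 KO-Mist1+ than in Mist1+, the pair in which Gkn2 was 4.32-fold lower. Muc5ac stands between Muc2 and Muc5b on chromosome 7, in a span of 240 kb with Muc6 at its other end. Muc6, the gland mucin of neck cells, had 20.6, 20.0 and 5.71 FPKM, so its level was 114, 143 and 26.0 times that of Muc5ac. Muc2 was at 0.20, 0.11 and 0.04 FPKM, and Muc5b had at most 1 count.

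**Figure D5:**
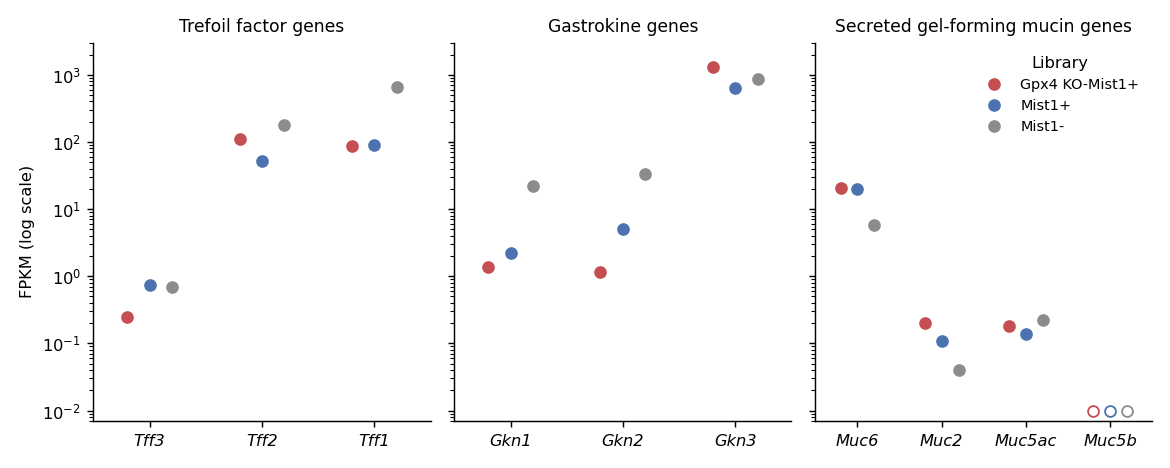
FPKM on a log axis of the trefoil, gastrokine and gel-forming mucin genes, which are neighbours on chromosomes 17, 6 and 7, with a point per library. Open circles mark an FPKM listed as 0, drawn at the bottom. Tff1, Gkn1, Gkn2 and Tff2 are highest in Mist1-, Gkn3 is highest in Gpx4 KO-Mist1+, and Muc6 is lowest in Mist1-.

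Markers of the neighbouring cell types also differed between libraries. All 7 mucous neck cell markers were measured, and their summed FPKM was 2075 in Gpx4 KO-Mist1+, 839.8 in Mist1+ and 1228 in Mist1-. Chief cell markers were measured for 5 of 8, with sums of 2643, 3554 and 2032 FPKM and with Pga5 and Cpb1 at 0 everywhere. The chief cell sum came mostly from Pgc, at 2084, 2579 and 1539 FPKM. Cckar, of the same list, differed more, at 1.97, 48.0 and 13.8 FPKM. Of 8 parietal cell markers 5 were measured, with Atp4b and Slc26a7 at 0 and Atp4a at or below 1.69 FPKM, and their sums of 765, 1042.5 and 1101 FPKM came mostly from Car2 and Cldn18. The neck sum came mostly from Gkn3 and from Aqp5, at 568, 97.2 and 145.8 FPKM, while Tff2 was highest in Mist1-, A4gnt was highest in Mist1+ (13.9, 22.3 and 8.37 FPKM) and Muc6 was level in both Mist1+ cultures. The neck sum was thus highest in Gpx4 KO-Mist1+ and the chief cell sum in Mist1+, while the sum of the pit cell genes was highest in Mist1-. The part of cell make-up in the differences of the pit cell genes was not tested.

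Other genes known from surface mucous cells were held in a list of 15 symbols, of which 14 are in the table and 11 were measured. In Mist1+ against Mist1-, 3 were called lower and 0 higher, where 5.73% and 7.88% of all measured genes were. The median log2 ratio was -0.53, beside 0.15 over all. The 3 called lower were Phgr1, the lectin gene Lgals4 and the aldehyde dehydrogenase gene Aldh3a1. Of the 11, 8 had a log2 ratio below 0 and 3 above 0, namely Fut2 (0.53), Muc1 (0.33) and Cldn18 (0.09). Phgr1, at 547 exonic bases, is among the genes of 500 to 1500 bases, of which 19.2% were called lower. Phgr1 had 23.6 FPKM in Gpx4 KO-Mist1+, 7.79 in Mist1+ and 39.6 in Mist1-, so that like Psca it was lowest in Mist1+. It was 3.03-fold higher (2.30 to 4.04) in Gpx4 KO-Mist1+ than in Mist1+. Lgals4 had 29.1, 50.9 and 132 FPKM. Between Gpx4 KO-Mist1+ and Mist1+, Phgr1 was the 1 gene called higher and the membrane mucin gene Muc1 the 1 called lower, at 359 FPKM against 753, and the median was -0.33. Of all measured genes 4.81% were called higher and 2.74% lower in this pair, with a median of -0.09. Between Gpx4 KO-Mist1+ and Mist1-, 4 were called lower and 0 higher, where 8.56% and 11.6% of all measured genes were. The median was -0.72, beside 0.09 over all. The sulfotransferase gene Sult1c2 was among the 4, at 80.8 FPKM against 262. Beside these, Mucl3, Krt20, Gsdma and Upk1b were at or below 1.23 FPKM in every library.

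Relatives of the junctional and protease members were compared as well. Of 13 other calpain genes and their regulators 11 were measured, among them Capns1, the small subunit of the widely expressed calpains, with 64.7, 74.8 and 100 FPKM in Gpx4 KO-Mist1+, Mist1+ and Mist1-. Capn2, which neighbours Capn8 on chromosome 1, had 5.97, 3.45 and 3.0 FPKM. Capns1 and Capn2 thus stood far above Capn8 and Capn9 in FPKM. For Gpx4 KO-Mist1+ against Mist1+ 0 were called higher and 1 lower, Capn11, with 0 counts against 54. In Mist1+ against Mist1- 1 was called higher, Capn15 (2.55-fold, 2.2 to 2.97), and 0 lower. Of 12 junctional immunoglobulin genes, with Tjp1 for the ZO-1 that Vsig1 binds, 7 were measured, and 1 was called higher in Gpx4 KO-Mist1+ than in Mist1+ (Gpa33, 2.74-fold, 2.38 to 3.18) and 1 in Mist1+ than in Mist1- (Tjp1, 3.10-fold, 2.92 to 3.30), with 0 lower in either. The shares of all measured genes to set beside both lists were 4.81% higher and 2.74% lower in Gpx4 KO-Mist1+ against Mist1+. In Mist1+ against Mist1- they were 7.88% higher and 5.73% lower. Tjp1 had 48.2, 36.8 and 11.9 FPKM, and with 7811 exonic bases it is among the 2670 longest measured genes, of which 18.2% were called higher in Mist1+ than in Mist1-. F11r, a junctional adhesion molecule, was level at 100.3, 93.2 and 99.8 FPKM. Among 8 other aspartic protease genes 5 were measured, and Cym, the milk-clotting protease chymosin, had 0.49 FPKM in Gpx4 KO-Mist1+ against 21.0 in Mist1+, 42.6-fold lower (23.0 to 89.6), while Ctse differed by 1.42-fold in the same pair.

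Of 24 regulators of gastric and mucous identity 23 were measured. In Mist1+ against Mist1- 1 was called higher and 0 lower, where 7.88% and 5.73% of all measured genes were. The median log2 ratio was 0.48, beside 0.15 over all, while the pit cell peptides were lower. For Gpx4 KO-Mist1+ against Mist1+ 0 were called higher and 1 lower, Hnf4g, at 0.31 FPKM against 2.22, and the median was -0.29. Of all measured genes 4.81% were called higher and 2.74% lower in that pair, with a median of -0.09. Gata4 had 33.1, 59.6 and 31.6 FPKM and Gata6 had 9.97, 14.1 and 9.81 in Gpx4 KO-Mist1+, Mist1+ and Mist1-. Spdef, a factor of mucous secretory cells, had 14.1, 26.2 and 30.5 FPKM and was the 1 regulator called lower in Gpx4 KO-Mist1+ against Mist1-. There 2 regulators were called higher, where 8.56% of all measured genes were called lower and 11.6% higher.

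Across the 3 libraries, the genes nearest to Tff1 in their pair of log2 ratios (Mist1+ against Mist1-, and Gpx4 KO-Mist1+ against Mist1+) were sought among named genes outside the members that reached an FPKM of 5. The nearest 5 were Gm38197, Gm49539, Rps12-ps4, Gm50383 and Gm13567, at straight-line distances of 0.27 to 0.74. All are noncoding, pseudogene or unconfirmed entries of the annotation with at most 240 counts in Mist1-, so no abundant protein-coding gene came as close. Gkn1, a member, lay nearer than all but Gm38197 of them, with -2.85 and -0.44 beside -2.84 and -0.05 for Tff1.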

How the data were processed

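RNA from 3 mouse corpus organoid cultures was sequenced, 1 library per group. The submitters' processing notes name cutadapt 1.9.1, the aligner HISAT2 2.2.1, the counter HTSeq 0.6.1 and the build GRCm38.p5. The deposited counts are whole reads per gene and the FPKM are the authors' own, per the file headers. The deposited FPKM lay within 2.77% of count over exonic length and column total for genes of at least 50 counts. The annotation release and counting strand are not given in the sources used here. Start and end in the table matched GENCODE M21 (GRCm38) for 2.83% of 52073 shared identifiers and for 0 of the 10 members, so coordinates are from M21, and the build of those columns is not known.

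Log2 ratios are of FPKM plus a pseudocount of 1. Fold intervals are exact, from the binomial split of the 2 counts, and levels have exact Poisson intervals, both at 95%. No p-value is given, as groups have no replicates. The code was tested on simulated data. The members and the 18 gene lists were chosen with earlier results of these data known. The named genes were all members, up to 3 per other list with the largest ratios, and the 5 nearest to Tff1 in pattern, some of which are not reported here. A4gnt, Aldh3a1, Atp4a, Capn2, Capns1, Cldn18, F11r, Foxq1, Fut2, Gata4, Gata6, Muc1, Pgc, Spdef and the low genes of each list were named after their values were seen. Alternatives were pseudocounts of 0.1 and 5, a filter at an FPKM of 5 or none, TPM made from the FPKM, median ratio scaling over 17498 genes, counts scaled to totals (CPM), cutoffs of 1.5-fold and 4-fold, and removal of the lowess trend (fraction 0.3) on exonic length. Lines without a gene symbol held at most 0.298% of counts and stayed in. Software was matplotlib 3.10.9, statsmodels 0.14.6, scipy 1.17.1, pandas 2.3.3 and numpy 2.4.6 under Python 3.11.15.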

Additional observations from a re-analysis of the deposited data

How the results depend on the processing

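No paired analysis was possible because each group has 1 library, and for the same reason no library could be left out. Tff1, Gkn1 and Gkn2 were called lower in both comparisons with Mist1- under each of the 8 settings that keep the 2-fold cutoff. Their log2 ratios in Mist1+ against Mist1- ranged from -3.07 to -2.28, from -3.26 to -1.91 and from -2.72 to -1.94. Psca was called higher in Gpx4 KO-Mist1+ against Mist1+ under the same 8 (1.46 to 1.78). Gkn2 in that pair was called under 7, and with a pseudocount of 5, at -0.70, the count of members called lower was 0. Psca in Mist1+ against Mist1- crossed the call with a pseudocount of 0.1 (-1.01) and after median ratio scaling (-1.18). At 4-fold, 0 were called higher and 0 lower in Gpx4 KO-Mist1+ against Mist1+. In Gpx4 KO-Mist1+ against Mist1-, 1 member, Psca, was called higher on TPM, with the length trend removed and at 1.5-fold. The median of the measured members in Mist1+ against Mist1- was -0.27 without a filter, which adds the 3 members near 0, -0.68 on TPM, -0.70 on CPM, where Muc5ac entered as an added measured member, and -0.38 with the length trend removed. For Gpx4 KO-Mist1+ against Mist1- it was -0.38 without a filter, -0.26 on TPM, -0.68 after median ratio scaling and -0.33 with the length trend removed. The cause of the other shifts was not tested. The scale factors alone, without a pseudocount, shift log2 ratios of Mist1+ against Mist1- by 0.33 on TPM and by -0.23 after median ratio scaling. Those of Gpx4 KO-Mist1+ against Mist1+ shift by -0.04 and 0.09. With the pseudocount of 1, low genes moved by other amounts. On TPM, Gkn1 went from -2.85 to -2.83 in Mist1+ against Mist1-. Gkn2 went from -1.48 to -1.89 in Gpx4 KO-Mist1+ against Mist1+. Median ratio scaling of the count folds was added after the values were seen; Tff1 was then at 0.118-fold in Mist1+ against Mist1-, and Vsig1 at 1.01-fold. Depth limits Capn8, Capn9 and Muc5ac, for which no difference was detectable, and Gkn1 between both Mist1+ cultures.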

Other observations

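Genes for mucin chains and their sugars, outside the 10 pit cell genes, were measured for 16 of 21 symbols. For Gpx4 KO-Mist1+ against Mist1+ 5 were called higher and 2 lower, where 4.81% and 2.74% of all measured genes were, with a median log2 ratio of 0.25 beside -0.09 over all. The branching enzyme gene Gcnt1 had 16.5 FPKM in Gpx4 KO-Mist1+, 3.59 in Mist1+ and 4.24 in Mist1-, and was 4.59-fold higher (4.07 to 5.18) in the labelled knockout than in Mist1+. Ern2, an endoplasmic reticulum stress sensor of mucous cells, had 14.4, 60.1 and 19.4 FPKM, and was 4.17-fold lower (3.84 to 4.54) in the same pair. Muc4, a membrane mucin gene, had 7.69, 3.03 and 0.80 FPKM. In Mist1+ against Mist1- 3 were called higher and 1 lower, where 7.88% and 5.73% of all measured genes were, with a median of 0.38 beside 0.15 over all. Of the 3, Muc6 and Muc4 are among the 2670 longest measured genes, of which 18.2% were called higher in that pair. Between Gpx4 KO-Mist1+ and Mist1- 5 were called higher and 0 lower, where 11.6% and 8.56% of all were, with a median of 0.74 beside 0.09 over all, and 21.9% of the longest genes were called higher.

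Markers of intestinal epithelium were held in a list of 10, of which 4 were measured, and Cdx1 and Alpi were at 0. Villin, Vil1, had 85.0 FPKM in Gpx4 KO-Mist1+, 14.2 in Mist1+ and 32.8 in Mist1-, and the apolipoprotein gene Apoa1 had 586, 190 and 652. Both were lowest in Mist1+, but the other 2 measured markers were not, since Lgals4 was lowest in Gpx4 KO-Mist1+ (29.1, 50.9 and 132 FPKM) and Fabp1 was at 2.32, 2.57 and 2.66 FPKM. Of 8 squamous forestomach markers 2 were measured, with Krt4 at 9.49, 0.98 and 1.54 FPKM and Ivl at 2.28, 1.45 and 4.25, while Trp63 and Krtdap were at 0. Of 6 tuft cell markers 1 was measured, Avil, at 17.4, 5.00 and 9.55 FPKM, and Pou2f3 and Gfi1b were at 0. Of 7 immune cell markers 1 was measured, Cd68, which epithelial lysosomes can also hold, at 24.4, 5.06 and 4.37 FPKM.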
